A study of Homo sapiens with 7 samples.

Results

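The younger MLT1 elements described here are the annotated repeat copies and repeat families whose name starts with MLT1A, MLT1B, MLT1C or MLT1D, both the long terminal repeats (LTRs) and the internal parts marked -int. They numbered 98407 of the 712115 copies in the deposited locus sheets, of which 97635 of 703140 were listed for all libraries, and 12 of 498 families. The name alone chose them, and no read count was used. RNA bound by J2, an antibody that recognises double-stranded RNA, was sequenced from HCT116, a human colon carcinoma cell line, in 7 libraries deposited as 2 sets. Set 1 holds 1 library each of cells given 5-Aza-CdR, cells given the Combination, and cells given PBS, the untreated control. Set 2 holds 1 library each of 5-Aza-CdR, Combination, Vc and PBS. 5-Aza-CdR (5-aza-2'-deoxycytidine) inhibits DNA methyltransferases. The protocol names a dose of 0.3 µM, a change of medium after 24 h and culture to day 5. The labels define neither Vc nor the Combination. Vc stands for vitamin C in the published study, which pairs it with 5-Aza-CdR in the Combination. All libraries share the cell line, RNase T1 digestion of single-stranded RNA, DNase digestion, shearing of the recovered RNA and a small RNA library kit. Whether the sets came from separate cultures is not stated, so p-values rest on the spread between these libraries, which may be technical. For single copies that spread is shared across the copies tested and is not the copy's own. The design text sets 5-Aza-CdR and the Combination against untreated cells, and the question followed here is which younger MLT1 copies yield J2-bound RNA under each treatment.

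MLT1 elements are mammalian apparent LTR retrotransposons, non-autonomous relatives of the class III endogenous retrovirus ERVL, and they spread in early mammals before the related MST and the primate THE1 elements. Most copies are solitary LTRs, which carry the promoter and polyadenylation signals of the original element, and the internal parts hold gag and protease remnants with no env gene. Double-stranded RNA can form where a copy is read on both strands or where inverted copies lie in 1 transcript, including an intron of a host gene, and such RNA is a known ligand of the cytosolic sensor MDA5. Reads on a copy therefore need not start at that copy, and the files do not say on which strand they lay.

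Depth was modest. Family counts summed to between 11531 and 32275 reads per library, and younger MLT1 elements held between 1137 and 2979 of these. The PBS library of set 1 stood apart in its reads per copy and is named wherever a result rests on it. Its copies with reads held more reads each than those of any other library, among the younger MLT1 elements and the older ones (MLT1E to MLT1O) alike. Within set 1, younger MLT1 copies with reads held 1.32 reads each after 5-Aza-CdR and 1.28 after the Combination, against 3.70 in PBS. Picard, the package that includes a duplicate marker, is named in the processing notes of set 2 and not of set 1, and its part in this difference was not tested.

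The younger MLT1 share of all family reads was lower in the 4 libraries given 5-Aza-CdR or the Combination than in PBS of the same set, and the intervals of Vc and PBS overlapped. In set 1 it was 9.86% after 5-Aza-CdR (95% Wilson interval 9.33 to 10.4) and 8.76% after the Combination (8.31 to 9.24), against 12.9% in PBS (12.5 to 13.3). In set 2 it was 7.65% after 5-Aza-CdR (7.31 to 7.99) and 7.83% after the Combination (7.54 to 8.12), against 11.7% in Vc (11.3 to 12.2) and 11.5% in PBS (11.1 to 12.0). The drug and control intervals do not overlap within either set. Such intervals reflect counting error alone, as the libraries carried no molecular identifiers and PCR copies are not independent. Shares of older MLT1, MST and THE1 families were also lower in the 4 drug libraries than in PBS of the same set. In set 2, older MLT1 held 7.70% after 5-Aza-CdR and 6.90% after the Combination, against 11.5% in PBS. MST held 4.94% after 5-Aza-CdR and 4.51% after the Combination, against 7.41% in PBS. THE1 held 8.34% after 5-Aza-CdR and 8.32% after the Combination, against 8.92% in PBS.

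As a ratio to PBS per family read, the members stood at 0.766 after 5-Aza-CdR (exact 95% interval 0.714 to 0.820) and 0.681 after the Combination (0.637 to 0.727) in set 1. In set 2 the ratios were 0.663 (0.622 to 0.705) after 5-Aza-CdR, 0.678 (0.640 to 0.718) after the Combination and 1.02 (0.957 to 1.08) after Vc. The direction in set 1 turns round with the scaling, since per tRNA read the same counts give 2.32 times the PBS level after 5-Aza-CdR and 6.14 times after the Combination. Set 1 gives 38200 tRNA reads for 5-Aza-CdR, 15946 for the Combination and 232558 for PBS, and set 2 gives none. A lower share is therefore a statement about the proportion of repeat-family reads and not about RNA per cell.

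The LTR12 and HERV9 families, class I LTRs that include LTR12C, took up more of the same libraries. They held 18.5% of family reads after 5-Aza-CdR and 24.1% after the Combination, against 2.60% in PBS, in set 1, and 25.3% after 5-Aza-CdR and 31.3% after the Combination, against 5.57% in Vc and 5.72% in PBS, in set 2. Of the reads outside these families, the younger MLT1 share was 12.1% after 5-Aza-CdR and 11.5% after the Combination, against 13.2% in PBS, in set 1. In set 2 it was 10.2% after 5-Aza-CdR and 11.4% after the Combination, against 12.4% in Vc and 12.2% in PBS. The gap to PBS was smaller on this footing in all 4 drug libraries, and was then largest for 5-Aza-CdR of set 2, where the interval ran from 9.80 to 10.7 against 11.8 to 12.7 in PBS.

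**Figure D1:**
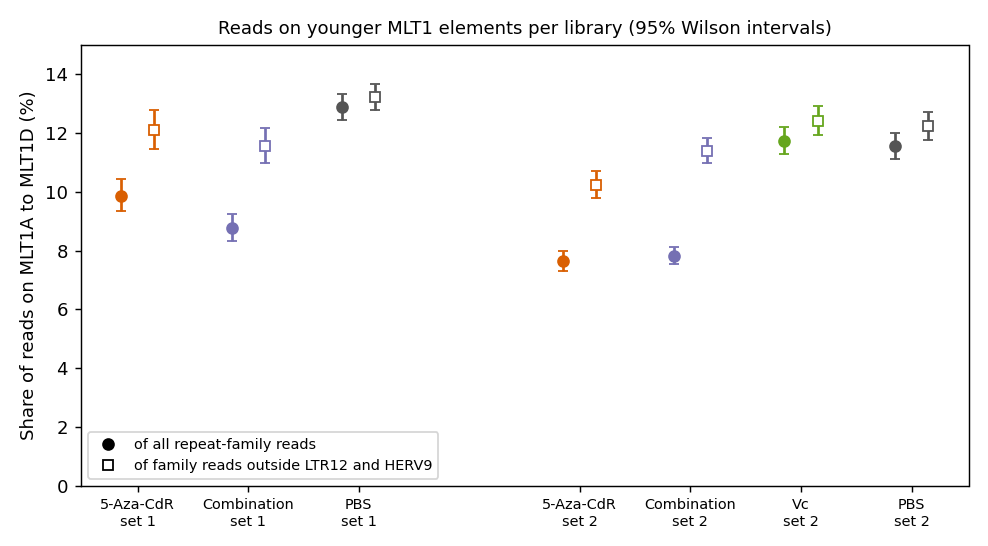
Share of reads on MLT1A to MLT1D elements (y axis, %) in each library (x axis), as filled circles for all repeat-family reads and open squares for reads outside LTR12 and HERV9, with 95% Wilson intervals. Of all family reads the 4 drug libraries lie between 7.65% and 9.86% and the Vc and PBS libraries between 11.5% and 12.9%, and the gap narrows for the open squares.

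Levels were compared between families per megabase of annotated sequence and per 10000 family reads. In PBS of set 2, MLT1A1 had the highest level of the LTR families, 54.5, followed by MLT1D at 49.0, MLT1A at 42.9, MLT1C at 41.0, MLT1B at 35.2 and MLT1A0 at 28.4. After the Combination in set 2, MLT1C led with 37.7 and MLT1A1 was lowest of the LTRs with 13.1. MLT1C was the LTR family whose level moved least in that set, with 40.2 after 5-Aza-CdR, 37.7 after the Combination, 43.4 in Vc and 41.0 in PBS. In PBS of set 1 the highest LTR level was that of MLT1A0, 63.9, which had been lowest in PBS of set 2. The order of the families was thus not the same in the 2 control libraries.

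No younger MLT1 family passed the test in any of the 3 contrasts. All 352 families that passed a filter on low counts were fitted together by edgeR's quasi-likelihood test with treatment and set as terms, and 11 of the 12 members were among them, MLT1A-int with 32 reads in all being left out. With Benjamini-Hochberg adjustment over all 352, 0 of 11 members were called after 5-Aza-CdR, where 1.14% of all families were called, and 0 of 11 after the Combination, where 1.99% were called. For Combination against 5-Aza-CdR 0 of 11 were called, as were 0% of all families. At an unadjusted p under 0.05 edgeR counted 2 members after 5-Aza-CdR, 1 after the Combination and 0 for Combination against 5-Aza-CdR. The median fitted log2 change of the 11 members was -0.34 after 5-Aza-CdR, beside -0.06 over all 352 families, and -0.38 after the Combination, beside -0.14 over all. It was 0.03 for Combination against 5-Aza-CdR, beside -0.03 over all.

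Values below 0 were in the majority, 9 of 11 after 5-Aza-CdR and 8 of 11 after the Combination. Over all families they numbered 189 of 352 after 5-Aza-CdR and 202 of 352 after the Combination. After 5-Aza-CdR they were 20 of 31 for older MLT1, 9 of 12 for MST and 5 of 9 for THE1. After the Combination they were 22 of 31 for older MLT1, 11 of 12 for MST and 5 of 9 for THE1. MLT1A1 had 77 reads after 5-Aza-CdR and 79 after the Combination, against 183 in PBS, in set 1. In set 2 it had 79 after 5-Aza-CdR and 83 after the Combination, against 210 in Vc and 207 in PBS. Its fitted log2 change was -0.81 (SE 0.33, n = 2 libraries a treatment, edgeR adjusted p = 0.415) after 5-Aza-CdR and -1.08 (SE 0.33, edgeR adjusted p = 0.346) after the Combination. The low values lie in set 2, where the ratio to PBS per family read was 0.315 after 5-Aza-CdR (0.240 to 0.410) and 0.240 after the Combination (0.184 to 0.311), while in set 1 it was 0.844 after 5-Aza-CdR (0.638 to 1.11) and 0.697 after the Combination (0.529 to 0.913).

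MLT1A had 83 reads after 5-Aza-CdR and 101 after the Combination, against 264 in PBS, in set 1. In set 2 it had 120 after 5-Aza-CdR and 187 after the Combination, against 143 in Vc and 204 in PBS. The Vc library was below PBS here too, at 0.736 per family read (0.590 to 0.916). The fitted log2 change of MLT1A was -0.70 (SE 0.28) after 5-Aza-CdR and -0.55 (SE 0.28) after the Combination, with edgeR adjusted p of 0.415 after 5-Aza-CdR and 0.645 after the Combination.

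MLT1A0 had 227 reads after 5-Aza-CdR and 293 after the Combination, against 843 in PBS, in set 1, and 263 after 5-Aza-CdR and 362 after the Combination, against 299 in Vc and 313 in PBS, in set 2. With set 1's PBS library it stood at -0.57 (SE 0.35) after 5-Aza-CdR and -0.49 (SE 0.35) after the Combination. Without that library the values were -0.09 after 5-Aza-CdR and 0.01 after the Combination. MLT1D had 241 reads after 5-Aza-CdR and 245 after the Combination, against 585 in PBS, in set 1, and 428 after 5-Aza-CdR and 643 after the Combination, against 595 in Vc and 623 in PBS, in set 2. Its log2 changes were -0.39 after 5-Aza-CdR and -0.40 after the Combination (SE 0.30 each).

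MLT1B and MLT1C were near 0. MLT1B had 204 reads after 5-Aza-CdR and 224 after the Combination, against 455 in PBS, in set 1, and 292 after 5-Aza-CdR and 431 after the Combination, against 350 in Vc and 334 in PBS, in set 2, for log2 changes of -0.16 after 5-Aza-CdR (95% interval -0.85 to 0.54) and -0.13 after the Combination (-0.82 to 0.57). MLT1C, the member family with the most reads, had 257 after 5-Aza-CdR and 260 after the Combination, against 571 in PBS, in set 1, and 572 after 5-Aza-CdR and 740 after the Combination, against 486 in Vc and 482 in PBS, in set 2. Its log2 changes were 0.05 after 5-Aza-CdR (-0.75 to 0.86) and -0.07 after the Combination (-0.88 to 0.74). The intervals leave room for a change of either sign, so these data do not show that the 2 families were unaffected.

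The internal parts held few reads, between 63 and 111 in all for the 5 that were fitted. Their log2 changes ran from -0.97 for MLT1D-int to 0.46 for MLT1C-int after 5-Aza-CdR and from -0.93 for MLT1A1-int to 0.46 for MLT1A0-int after the Combination, with SE between 0.53 and 0.73. MLT1D-int had 8 reads after 5-Aza-CdR and 7 after the Combination, against 21 in PBS, in set 1, and 7 after 5-Aza-CdR and 25 after the Combination, against 21 in Vc and 22 in PBS, in set 2. MLT1A1-int had 13 after 5-Aza-CdR and 10 after the Combination, against 15 in PBS, in set 1, and 5 after 5-Aza-CdR and 3 after the Combination, against 9 in Vc and 12 in PBS, in set 2. The counts of MLT1D-int overlap between drug and control libraries in set 2. Those of MLT1A1-int were lower in the drug libraries of both sets before scaling to depth. Per family read in set 1, MLT1A1-int stood at 1.74 times PBS after 5-Aza-CdR (0.761 to 3.92). After the Combination it stood at 1.08 times PBS (0.433 to 2.56), so a fall in set 1 is not shown. In set 2 its drug libraries stayed below PBS per family read. Neither internal family passed the test.

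**Figure D2:**
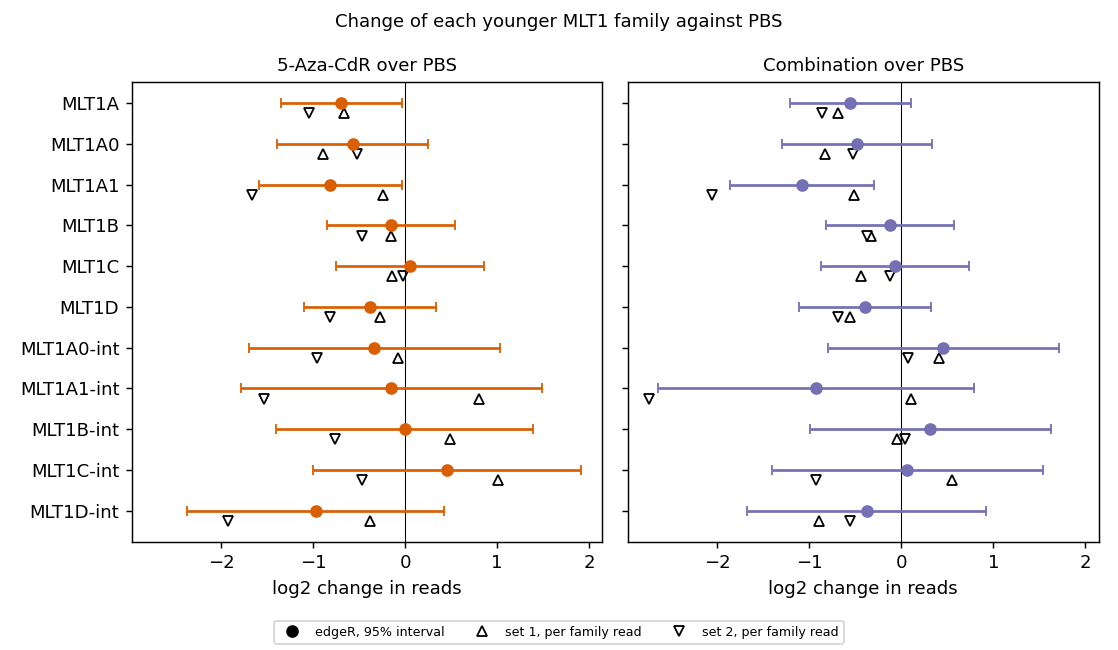
Fitted log2 change over PBS (x axis) of each of the 11 younger MLT1 families that were fitted (rows), after 5-Aza-CdR (left) and the Combination (right), as circles with 95% intervals, and the ratio within each set per family read as triangles. Most circles lie left of 0, the interval of MLT1A1 excludes 0 in both panels before adjustment, and the internal parts have the widest intervals.

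Leaving out 1 PBS library changed which families passed, and the families differed by the library left out. Without PBS of set 1, MLT1A1 passed edgeR's test after 5-Aza-CdR (adjusted p = 0.000299) and after the Combination (adjusted p = 3.6e-05). Without PBS of set 2, MLT1A (adjusted p = 0.00511 after 5-Aza-CdR and 0.0232 after the Combination) and MLT1A0 (0.000556 after 5-Aza-CdR and 0.0015 after the Combination) passed. All of these were lower than PBS. Each then compares the drug libraries with a single PBS library, whose own spread is taken from the other treatments.

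Much of the MLT1A1 value rests on 1 copy. The copy at chr5:860625-860972 on the minus strand (hg19, as are all positions here) is 348 bp long and was the most-read member of all, with 250 reads. It had 10 reads after 5-Aza-CdR and 5 after the Combination, against 114 in Vc and 121 in PBS, in set 2, and 0 in all 3 libraries of set 1. The other MLT1A1 copies together had 69 after 5-Aza-CdR and 78 after the Combination, against 96 in Vc and 86 in PBS, in set 2. These are raw counts, and the drug libraries of set 2 held more family reads than its Vc and PBS libraries. In set 1, where the copy had 0 reads, the family was at 0.697 times PBS per family read after the Combination (0.529 to 0.913). With the leading copy of each member family taken off its counts, the log2 change of MLT1A1 was -0.22 after 5-Aza-CdR and -0.43 after the Combination (edgeR adjusted p = 0.766 after 5-Aza-CdR and 0.658 after the Combination). An MSTB2 copy at chr5:862748-862918 on the same strand, 1776 bp away, had the same pattern, with 27 reads after 5-Aza-CdR and 30 after the Combination, against 181 in Vc and 170 in PBS.

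Reads on younger MLT1 elements were spread thinly. Of the 97635 copies, 5683 (5.82%) had a read in any library, and 67.5% of these had 1 read in all. The 40 copies with at least 30 reads held 18.5% of the 14074 member reads. In set 1, 863 copies had reads after 5-Aza-CdR and 977 after the Combination, against 804 in PBS. In set 2 the numbers were 1159 after 5-Aza-CdR and 1459 after the Combination, against 1164 in Vc and 1208 in PBS. The Combination library had the most copies with reads in each set, and in set 2 it was also the deepest, with 32275 family reads.

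The PBS library of set 1 held more reads on fewer copies. It had 3.70 reads per copy with reads, against 1.28 to 1.85 in the other 6 libraries, and 33.2% of its copies with reads held a single read, against 78.3% to 83.2% elsewhere. In it 44 copies had at least 10 reads, beside 1 after 5-Aza-CdR and 2 after the Combination in that set, and 23 in PBS of set 2. Among older MLT1 copies the same library had 32.6% with a single read, so the trait is not one of the younger elements.

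**Figure D3:**
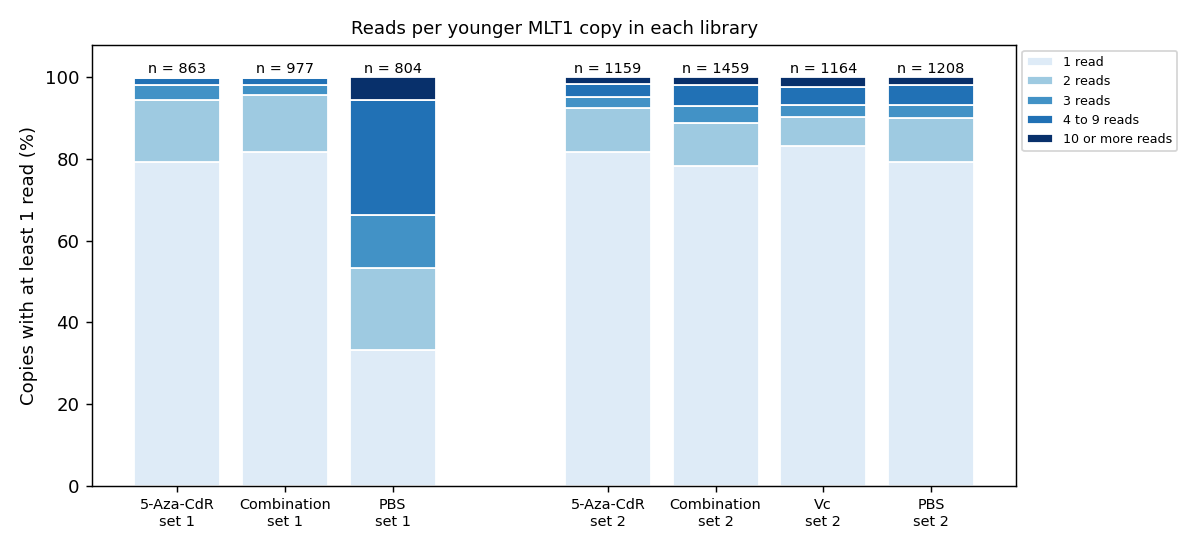
Copies with at least 1 read (y axis, %) split by their number of reads, in each library (x axis), with the number of copies above each bar. Single-read copies make up 33.2% of PBS of set 1 and 78.3% to 83.2% of the other 6 libraries.

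Few copies recurred between sets, among the younger MLT1 elements and their relatives alike. Of younger MLT1 copies with reads, 9.27% had reads in both sets, against 13.2% over all copies with reads. The share was 9.15% for older MLT1, 10.3% for MST and 10.9% for THE1. Of the younger MLT1 copies with reads, 101 were shared between the 5-Aza-CdR libraries, 11.7% of those in set 1 and 8.71% of those in set 2. The Combination libraries shared 130 (13.3% of set 1 and 8.91% of set 2) and the PBS libraries 112 (13.9% of set 1 and 9.27% of set 2). Within set 2, Combination and 5-Aza-CdR shared 335, 23.0% of the Combination copies and 28.9% of the 5-Aza-CdR copies. Longer copies were more often read: 2.43% of those up to 100 bp had a read, against 7.53% of those over 400 bp. Reads per megabase did not follow that order. They were 655 in copies up to 100 bp, 629 up to 200 bp, 755 up to 300 bp, 427 up to 400 bp and 407 above.

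Single copies passed the test where families did not. Loci of all families with at least 30 reads summed over the 7 libraries were fitted together, 409 in all, of which 40 were younger MLT1 copies. A copy can thus enter through the group in which it is high. All 119 reads of an MLT1C copy on chromosome 2 lay in drug libraries. All 52 of an MLT1B copy on chromosome 7 lay in PBS of set 1. Adjusted p-values of such copies, and the numbers called among the 40, are conditional on that entry. The prior degrees of freedom were infinite in this fit, against 5.2 for families, so each test used a spread shared across loci. A copy whose PBS libraries differ widely can therefore still pass. By edgeR's quasi-likelihood test with adjustment over all 409, 3 of the 40 members were higher and 6 lower after 5-Aza-CdR, and 4 higher and 6 lower after the Combination. Of all loci tested, 29.3% were called after 5-Aza-CdR (23% higher and 6.36% lower) and 33.5% after the Combination (26.4% higher and 7.09% lower). For Combination against 5-Aza-CdR 0 members were called, as were 0% of all loci, and no member had an unadjusted p under 0.05. The median log2 change of the 40 members was -0.63 after 5-Aza-CdR, beside 0.32 over all loci, and -0.71 after the Combination, beside 0.12 over all. LTR12 and HERV9 copies made up 111 of the 409 loci. Over the 298 other loci, 24 were higher and 26 lower after 5-Aza-CdR, and 20 higher and 29 lower after the Combination, and the median was -0.36 after 5-Aza-CdR and -0.58 after the Combination.

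The calls depend on the libraries and on the tool. With DESeq2 in place of edgeR, 1 member was called, higher, in each of the contrasts with PBS. Without set as a term edgeR called 0 of 40 members and 0 of 409 loci in either contrast, with 6 members after 5-Aza-CdR and 5 after the Combination at an unadjusted p under 0.05. Leaving out any 1 of the 4 drug libraries left 0 or 1 member called in each contrast, also where the library was of the other treatment. Without PBS of set 1 edgeR called 5 members after 5-Aza-CdR and 8 after the Combination, without PBS of set 2 it called 2 in each, and without Vc it called 7 after 5-Aza-CdR and 10 after the Combination.

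The rise that passed under the most alternatives was that of an MLT1C copy at chr2:242486123-242486533 on the plus strand, 411 bp long. It had 21 reads after 5-Aza-CdR and 18 after the Combination, against 0 in PBS, in set 1, and 44 after 5-Aza-CdR and 36 after the Combination, against 0 in Vc and 0 in PBS, in set 2. All 4 drug libraries hold reads and no other library does. Against a floor of 3 reads in the PBS library, and with the library sizes of the locus fit, as for the other single copies, it was at least 20.1-fold higher after 5-Aza-CdR and at least 12.0-fold higher after the Combination in set 1, and at least 15.8-fold higher after 5-Aza-CdR and at least 8.86-fold higher after the Combination in set 2. The same folds of set 1 on the family fit's sizes were 12.8-fold after 5-Aza-CdR and 9.12-fold after the Combination. Here and below, "at least" takes PBS at that floor and leaves out counting error in the drug library. Such folds are therefore not interval limits. EdgeR's adjusted p was 1.12e-05 after 5-Aza-CdR and 6.52e-05 after the Combination, and it passed in 10 of 12 alternatives in each contrast, DESeq2 included (adjusted p = 0.0241 after 5-Aza-CdR and 0.0279 after the Combination). The exceptions were the fit without set as a term (adjusted p = 0.187 after 5-Aza-CdR and 0.139 after the Combination) and the fit without the set 1 library of the treatment in question. It was the most-read member in both 5-Aza-CdR libraries. The nearest LTR12C copy lay 1007136 bp away, and within 15 kb an MSTB copy 6334 bp on, on the other strand, had 0 reads after 5-Aza-CdR and 1 after the Combination, against 0 in PBS, in set 1 and 5 after 5-Aza-CdR and 11 after the Combination, against 0 in Vc and 0 in PBS, in set 2.

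An MLT1A0 copy at chr17:10221597-10221943 on the plus strand, 347 bp long, rose too. It had 3 reads after 5-Aza-CdR and 1 after the Combination, against 0 in PBS, in set 1, and 13 after 5-Aza-CdR and 16 after the Combination, against 0 in Vc and 0 in PBS, in set 2. In set 2 it was at least 4.68-fold higher after 5-Aza-CdR and at least 3.94-fold higher after the Combination (edgeR adjusted p over both sets 0.00288 after 5-Aza-CdR and 0.00524 after the Combination). The set 1 counts are at or under the floor and give no fold. Without PBS of set 2 the adjusted p was 0.148 after 5-Aza-CdR and 0.176 after the Combination. A copy of the same family and width on the other strand, 92376 bp away, had 0 reads in all 7 libraries.

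The other MLT1C copy that rose, at chr13:111482680-111483016 on the plus strand, 337 bp long, lay 7811 bp 3' of an LTR12C copy on the same strand. It had 5 reads after 5-Aza-CdR and 4 after the Combination, against 0 in PBS, in set 1, and 17 after 5-Aza-CdR and 48 after the Combination, against 1 in Vc and 1 in PBS, in set 2. In set 1 it was at least 4.80-fold higher after 5-Aza-CdR and at least 2.67-fold higher after the Combination, and with the family fit's sizes at least 3.04-fold after 5-Aza-CdR and at least 2.03-fold after the Combination. In set 2 the ratio to PBS was 18.4 after 5-Aza-CdR (95% interval 2.88 to 767) and 35.5 after the Combination (6.07 to 1429). EdgeR's adjusted p was 0.0121 after 5-Aza-CdR and 0.00327 after the Combination, and without PBS of set 2 it was 0.109 after 5-Aza-CdR and 0.0719 after the Combination.

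That LTR12C copy, at chr13:111473323-111474869, had 28 reads after 5-Aza-CdR and 46 after the Combination, against 2 in PBS, in set 1, and 50 after 5-Aza-CdR and 77 after the Combination, against 2 in Vc and 1 in PBS, in set 2. In the 20 kb 3' of it lie 13 annotated copies, 5 of them younger MLT1. Of the 13, 11 had reads in a drug library, 213 reads over the 4 libraries, and 2 had reads in Vc or PBS, 3 reads over the 3 libraries. The region was chosen because the MLT1C copy that rose lies in it. These totals include that copy, with 74 of the drug reads and 2 of the others. An MLT1C copy at chr13:111484955-111485384 on the plus strand, chosen after its values were seen as 1 of 4 members with reads in all 4 drug libraries and in no other, had 1 read after 5-Aza-CdR and 1 after the Combination, against 0 in PBS, in set 1, and 5 after 5-Aza-CdR and 11 after the Combination, against 0 in Vc and 0 in PBS, in set 2. Copies on either strand carried the reads, among them an MSTB copy on the minus strand 1261 bp 5' of the MLT1C copy, with 4 after 5-Aza-CdR and 6 after the Combination, against 0 in PBS, in set 1 and 5 after 5-Aza-CdR and 18 after the Combination, against 1 in Vc and 0 in PBS, in set 2.

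**Figure D4:**
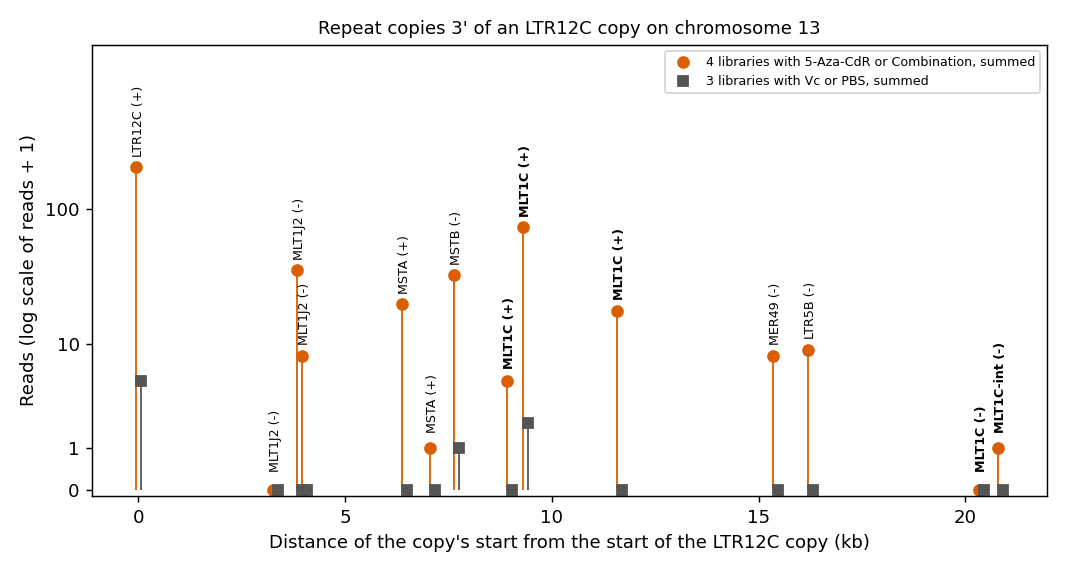
Reads (y axis, log scale of reads + 1) of repeat copies against the distance of their start from the start of an LTR12C copy on chromosome 13 (x axis, kb), summed over the 4 libraries with 5-Aza-CdR or the Combination (circles) and the 3 with Vc or PBS (squares). Younger MLT1 names are bold and the strand is in brackets. The 13 copies beyond the LTR12C copy hold 213 reads in the drug libraries and 3 in the others. Of these, 74 and 2 are of the MLT1C copy that rose, for which the region was chosen.

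An MLT1B copy at chr8:23131391-23131589 on the plus strand, 199 bp long, rose after the Combination (edgeR adjusted p = 0.0318) and missed the threshold after 5-Aza-CdR (adjusted p = 0.069). It had 5 reads after 5-Aza-CdR and 5 after the Combination, against 2 in PBS, in set 1, and 6 after 5-Aza-CdR and 16 after the Combination, against 1 in Vc and 0 in PBS, in set 2. An LTR12C copy ends 707 bp 5' of it on the same strand, with 0 reads in set 1 and 1 after 5-Aza-CdR and 3 after the Combination, against 0 in Vc and 0 in PBS, in set 2. So 2 of the 4 members that rose lay within 10 kb of an LTR12C copy. Of the 40 tested copies 3 did (7.5%, Wilson interval 2.58 to 19.9), the third being an uncalled MLT1C copy on chromosome 16, 5026 bp away and chosen after its values were seen. Of all younger MLT1 copies listed the share was 1.99%. Of the 176 member copies with at least 3 drug reads and none in Vc or PBS, 7 (3.98%, Wilson interval 1.94 to 7.98) lay that close, and of the 273 with the opposite pattern 1 did (0.366%, interval 0.0647 to 2.05). Both of these intervals include the share of all copies. That of the 40 tested copies lies above it, and those copies were chosen by their reads, drug libraries included.

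Most of the falls rest on 1 PBS library. Of the 8 members that fell, 4 had under 3 reads in PBS of set 2, so that their call rests on PBS of set 1, and 1 had 0 reads in all of set 1. The other 3 had at least 5 reads in both PBS libraries.

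Those 3 were on chromosomes 12 and 7. An MLT1C copy at chr12:34180589-34181062 on the minus strand had 0 reads after 5-Aza-CdR and 0 after the Combination, against 25 in PBS, in set 1, and 1 after 5-Aza-CdR and 2 after the Combination, against 13 in Vc and 9 in PBS, in set 2. It fell in both contrasts (edgeR adjusted p = 0.0415 after 5-Aza-CdR and 0.0294 after the Combination), and without PBS of set 2 the adjusted p was 0.0876 after 5-Aza-CdR and 0.0676 after the Combination. An MLT1D copy at chr7:44868296-44868740 on the minus strand had 0 after 5-Aza-CdR and 0 after the Combination, against 17 in PBS, in set 1, and 6 after 5-Aza-CdR and 3 after the Combination, against 14 in Vc and 13 in PBS, in set 2, and fell after the Combination (adjusted p = 0.0353) and not after 5-Aza-CdR (adjusted p = 0.234). Its adjusted p after the Combination was 0.0518 without PBS of set 1 and 0.0637 without PBS of set 2. An MLT1B copy at chr12:46863764-46864106 on the plus strand had 0 after 5-Aza-CdR and 1 after the Combination, against 5 in PBS, in set 1, and 0 after 5-Aza-CdR and 0 after the Combination, against 19 in Vc and 7 in PBS, in set 2, and fell after 5-Aza-CdR (edgeR adjusted p = 0.0341) and not after the Combination (adjusted p = 0.0609). At all 3 the Vc library had at least as many reads as PBS of set 2, and the drug libraries of both sets were below both. DESeq2's adjusted p after the Combination was 0.151 for the first and the second of them, and it gave none for the third.

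The MLT1A1 copy on chromosome 5 described above fell in both contrasts (edgeR adjusted p = 0.0341 after 5-Aza-CdR and 0.00322 after the Combination). In set 2 it was lower 11.2-fold after 5-Aza-CdR and 32.8-fold after the Combination, and at 1.01 times PBS (0.771 to 1.31) in Vc. Without PBS of set 2 the fitted change after 5-Aza-CdR was 0.71, of the opposite sign, with an adjusted p of 1. The copy has no reads in set 1.

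The 4 that rest on PBS of set 1 were an MLT1A0 copy at chr1:207341107-207341513, an MLT1B copy at chr7:30918707-30919089, an MLT1A0 copy at chr18:32837307-32837640 and an MLT1C copy at chr19:46054563-46054951, all on the plus strand. The chromosome 1 copy had 0 reads after 5-Aza-CdR and 1 after the Combination, against 96 in PBS, in set 1, and 0 after 5-Aza-CdR and 1 after the Combination, against 0 in Vc and 0 in PBS, in set 2 (edgeR adjusted p = 0.00643 after 5-Aza-CdR and 0.0426 after the Combination). The copy on chromosome 7 had 52 reads in PBS of set 1 and 0 in the other 6 libraries (adjusted p = 0.0269 after 5-Aza-CdR and 0.0115 after the Combination). On chromosome 18 the copy had 1 after 5-Aza-CdR and 0 after the Combination, against 31 in PBS, in set 1, and 0 in all of set 2, and passed after the Combination (adjusted p = 0.0213). That on chromosome 19 had 0 after 5-Aza-CdR and 2 after the Combination, against 23 in PBS, in set 1, and 0 after 5-Aza-CdR and 2 after the Combination, against 3 in Vc and 1 in PBS, in set 2, and passed after 5-Aza-CdR (adjusted p = 0.0357). These counts do not show a fall in set 2, where PBS had next to no reads to lose.

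Scaling by tRNA turned round no called direction among these copies in set 1. For most falls it could not, since 0 drug reads stay 0 on any scale, and it removes the room below PBS for most. Per 10000 tRNA reads, 2 falls not called after the Combination turned into values above PBS. These were 1.25 on chromosome 19 and 0.627 for MLT1B on chromosome 12. The chromosome 1 copy after the Combination (0.627) and the chromosome 18 copy after 5-Aza-CdR (0.262) stayed below PBS. Per 10000 tRNA reads the floor of 3 reads is 0.785 after 5-Aza-CdR and 1.88 after the Combination. PBS values on that scale were 4.13 for the chromosome 1 copy, 2.24 for MLT1B on chromosome 7, 1.33 on chromosome 18, 1.07 for MLT1C on chromosome 12, 0.989 on chromosome 19, 0.731 for MLT1D on chromosome 7 and 0.215 for MLT1B on chromosome 12. The first 2 of these exceed both floors and the last 2 exceed neither.

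**Figure D5:**
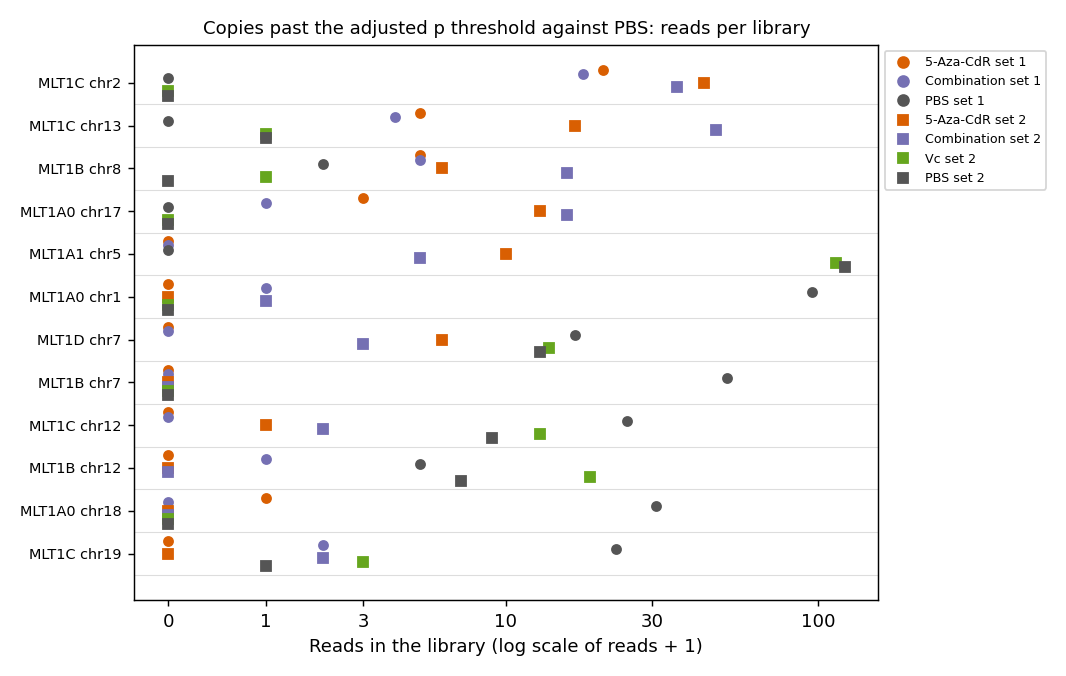
Reads in each of the 7 libraries (x axis, log scale of reads + 1) of the 12 younger MLT1 copies that passed the adjusted p threshold against PBS (rows, the 4 that rose on top). Coloured points are libraries, circles for set 1 and squares for set 2. The top rows have the drug libraries to the right, and 4 of the lower rows have only PBS of set 1 above 3 reads.

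The remaining well-read copies did not pass the test. Over the 28 tested members not called in any contrast, log2 changes ran from -2.58 to 1.08 after 5-Aza-CdR and from -2.80 to 1.09 after the Combination. MLT1A at chr1:158893902-158894106 on the plus strand, the leading copy of its family, had 29 reads after 5-Aza-CdR and 53 after the Combination, against 27 in Vc and 60 in PBS, in set 2, and 0 in set 1. MLT1C at chr6:36107458-36107873 on the minus strand had 1 after 5-Aza-CdR and 1 after the Combination, against 4 in PBS, in set 1, and 24 after 5-Aza-CdR and 34 after the Combination, against 50 in Vc and 42 in PBS, in set 2. The drug and control counts of the MLT1A copy overlap. Those of the MLT1C copy were lower in each drug library than in the control libraries of its set, and the copy did not pass edgeR's test (adjusted p = 0.742 after 5-Aza-CdR and 0.662 after the Combination).

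Of the MLT1D copies, the leading one at chr8:59361366-59361855 on the minus strand had 0 reads after 5-Aza-CdR and 0 after the Combination, against 2 in PBS, in set 1, and 19 after 5-Aza-CdR and 19 after the Combination, against 33 in Vc and 50 in PBS, in set 2. The MLT1D-int copy beside it, at chr8:59361978-59363260 and 123 bp away on the same strand, had 2 after 5-Aza-CdR and 1 after the Combination, against 5 in PBS, in set 1, and 2 after 5-Aza-CdR and 6 after the Combination, against 7 in Vc and 10 in PBS, in set 2. An MLT1D copy at chrX:54595286-54595553 on the minus strand had 0 after 5-Aza-CdR and 0 after the Combination, against 6 in PBS, in set 1, and 12 after 5-Aza-CdR and 15 after the Combination, against 41 in Vc and 35 in PBS, in set 2. All 3 had fewer reads in the drug libraries than in PBS of the same set before scaling to depth. With the library sizes of the locus fit, the MLT1D-int copy was at 1.15 times PBS after 5-Aza-CdR in set 1. The set 1 counts of the MLT1D copies were too low to give a fold, so a fall in that set is not shown. EdgeR adjusted p lay between 0.152 and 0.5 over both contrasts.

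Others were read in every library. MLT1D at chr10:127573824-127574313 on the plus strand had 7 reads after 5-Aza-CdR and 6 after the Combination, against 9 in PBS, in set 1, and 11 after 5-Aza-CdR and 27 after the Combination, against 22 in Vc and 33 in PBS, in set 2. MLT1D at chr2:37327416-37327575 on the plus strand had 4 after 5-Aza-CdR and 7 after the Combination, against 43 in PBS, in set 1, and 13 after 5-Aza-CdR and 12 after the Combination, against 28 in Vc and 12 in PBS, in set 2. MLT1D at chr14:103603143-103603347 on the minus strand had 3 after 5-Aza-CdR and 2 after the Combination, against 11 in PBS, in set 1, and 12 after 5-Aza-CdR and 18 after the Combination, against 10 in Vc and 10 in PBS, in set 2. In all, 7 member copies had reads in all 7 libraries, 4 in the 4 drug libraries alone and 6 in Vc and both PBS libraries alone, of 5683 with any read. Over all 48346 copies with reads the numbers were 118, 247 and 48, and 189 of the 247 were LTR12 or HERV9 copies.

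The remaining named copies had most of their reads in set 2. MLT1C at chr1:247462420-247462819 on the plus strand had 2 reads after 5-Aza-CdR and 0 after the Combination, against 4 in PBS, in set 1, and 15 after 5-Aza-CdR and 19 after the Combination, against 10 in Vc and 16 in PBS, in set 2. MLT1A0 at chr20:3854195-3854475 on the plus strand had 5 after 5-Aza-CdR and 0 after the Combination, against 5 in PBS, in set 1, and 14 after 5-Aza-CdR and 12 after the Combination, against 13 in Vc and 11 in PBS, in set 2. MLT1D at chr3:45125816-45126244 on the plus strand had 1 after 5-Aza-CdR and 1 after the Combination, against 0 in PBS, in set 1, and 10 after 5-Aza-CdR and 16 after the Combination, against 21 in Vc and 7 in PBS, in set 2. The groups overlap at each. MLT1C at chr16:75631002-75631358 on the plus strand had 0 reads in set 1 and 9 after 5-Aza-CdR and 16 after the Combination, against 13 in Vc and 11 in PBS, in set 2.

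The counts of some copies of equal width ran side by side. MLT1B copies at chrX:151877862-151878070 on the minus strand and chrX:151927411-151927619 on the plus strand have the same width of 209 bp and lie 49549 bp apart in opposite orientation. In set 2 the minus-strand copy had 13 reads after 5-Aza-CdR and 14 after the Combination, against 28 in Vc and 20 in PBS, and the other 10 after 5-Aza-CdR and 15 after the Combination, against 28 in Vc and 20 in PBS. Each has an MLT2C2 copy 116 bp away, with 12 reads after 5-Aza-CdR and 31 after the Combination, against 17 in Vc and 19 in PBS, beside the minus-strand copy, and 14 after 5-Aza-CdR and 32 after the Combination, against 19 in Vc and 16 in PBS, beside the other. The counts of the 2 copies were near-equal in all 4 libraries of set 2. How reads that match several copies were assigned is not given in the sources used here, and the values of either copy are uncertain. Counts were also close at 3 MLT1C copies of 427 bp on chromosome X, at starts 3771475, 3809899 and 3848330, chosen after their values were seen, which had 6, 6 and 4 reads after 5-Aza-CdR, 9, 9 and 5 after the Combination, 7, 7 and 5 in Vc, and 8, 6 and 7 in PBS of set 2.

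The copies with reads were described by what the names did not fix. Their median width was 359 bp, against 341 bp over all copies listed, and 50.7% lay on the plus strand, against 50.2%. A younger MLT1 copy on the opposite strand lay within 2 kb of 11.5% of copies with reads, of 16.5% of the 527 with reads in both sets, and of 10.2% of all copies. Among copies with at least 3 reads in the drug libraries and none in Vc or PBS the share was 12.5% of 176, and among those with the opposite pattern 20.5% of 273. With opposite-strand copies of any listed family counted, the order turned round. The share was then 37.2% of copies with reads and 37.6% of those in both sets, against 40.4% of all copies. It was 38.1% of the 176 and 41.0% of the 273. The lower quartile of width was 258 bp for copies with reads, against 172 bp for copies with none. No test was made of these values.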

How the data were processed

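J2-bound RNA of HCT116 cells was measured in 7 libraries. The authors deposited a raw count of reads per repeat family and per annotated copy, in 1 workbook a set. Per the labels the build was hg19, and per the submitters' processing notes Bowtie2 and Picard were used for set 2. No aligner is given for set 1 in the sources used here, nor a counting tool or a rule for reads that match several copies. A deposited ratio of family counts to tRNA reads in set 1 gave the tRNA number of each library. Starts were moved to 1-based positions. Genes near the copies were not analysed here. No repeat sequence of that build was used here. There were 0 sample columns left unused.

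Family and locus counts were fitted in R 4.3.3 by edgeR 4.0.16 (its quasi-likelihood test, trimmed mean of M-values, terms for treatment and set, all 7 libraries). Families had to pass edgeR's default filter (352 tested) and loci to hold at least 30 reads summed over libraries (409 tested), the library size being the sum of all loci listed in both sets. Adjustment was by the Benjamini-Hochberg method at 0.05. Each treatment but Vc had 2 libraries, leaving 2 residual degrees of freedom, and the single Vc library was described and not tested. A family listed in set 1 only and 1 listed in set 2 only, neither a member, were left out. For members, sums over the locus sheets were equal to the family counts but for MLT1D in PBS of set 1 and MLT1A in PBS of set 2. The fits were also run on simulated counts with known changes. Those counts held no effect of set, so they cannot speak to how the calls depend on set or on single libraries. Ratios within a set carry exact conditional binomial intervals with no test. Where PBS or the drug library had 0, a floor of 3 reads per library was used and no interval given. Alternatives were DESeq2 1.42.0, other library sizes and filters, no term for set, and each library left out.

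Named were every fitted member family, the 20 most-read member copies, the leading copy of each family with at least 30 reads, and every member copy past the threshold. The members and lists were chosen with earlier results of these data known.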

Additional observations from a re-analysis of the deposited data

How the results depend on the processing

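The choice of scaling sets the direction of the total in set 1: the log2 ratio of member reads to PBS was -0.39 after 5-Aza-CdR and -0.56 after the Combination per family read, and 1.22 after 5-Aza-CdR and 2.62 after the Combination per tRNA read. As a share of the locus sheets, whose sums in set 1 exceed the family sums through other families, the members held 2.91% after 5-Aza-CdR and 2.47% after the Combination, against 2.23% in PBS, in set 1, where the order turns round. Those values are the same without the most-read member copy, which has no reads in set 1, and in set 2 its removal gave 11.1% in Vc and 10.9% in PBS. Outside LTR12 and HERV9, an alternative added after seeing the data, the shares were 12.1% after 5-Aza-CdR and 11.5% after the Combination in set 1, and 10.2% after 5-Aza-CdR and 11.4% after the Combination in set 2, against 12.4% in Vc and 12.2% in PBS. Copies with at least 2 reads were 0.183% of all after 5-Aza-CdR, 0.183% after the Combination and 0.55% in PBS of set 1, and 0.217% after 5-Aza-CdR, 0.325% after the Combination, 0.201% in Vc and 0.257% in PBS of set 2. In the counts that follow, the first of a pair is for 5-Aza-CdR over PBS and the second for Combination over PBS. Over all families, 4 were called after 5-Aza-CdR and 7 after the Combination. With total reads as library size, which moved the median family by -0.18 and -0.22, these were 11 and 17, and 1 member family, MLT1A1, was called after the Combination. Without a filter they were 11 and 15, with DESeq2 11 after the Combination, and without the replicate block for set 0 and 2. Leaving out each library in turn gave 0 to 75 and 3 to 67 families and 0 to 2 members in both, and 0 to 2 families for Combination against 5-Aza-CdR. Loci called numbered 120 and 137. With DESeq2 they were 13 and 17, with at least 15 reads 54 after 5-Aza-CdR, and without the replicate block 0 and 0. Members among them, 9 and 10 of 40, were 1 and 1 with DESeq2, 5 of 102 after 5-Aza-CdR with at least 15 reads, and 0 and 0 without the replicate block. Leaving out each library in turn gave 4 to 117 and 0 to 133 loci, 0 to 7 and 0 to 10 members, and 0 to 10 loci for Combination against 5-Aza-CdR. The MLT1A1 copy on chromosome 5 changed sign after 5-Aza-CdR without PBS replicate 2 (0.71, the range over libraries left out being -3.57 to 0.71), and the MLT1A0 copy on chromosome 1 after the Combination without Combination replicate 1 (1.64, range -5.62 to 1.64). The cause was not tested. Of 1272 alternative values for named copies and families, 114 had a sign unlike the main value with neither called. Depth limits these results, since 67.5% of copies with reads held 1 read.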
